A study of Mus musculus with 16 samples.

Results

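The mitochondrial ribosomal protein genes are the 78 of 21938 protein-coding mouse genes whose symbol begins with Mrpl or Mrps and a number in the GENCODE M21 annotation (genome build mm10, also called GRCm38). By name, 49 begin with Mrpl and 29 with Mrps. By the place of the protein in the ribosome, 51 belong to the large subunit, 26 to the small subunit and 1, Mrps36, to neither, because its protein is now known as a part of the 2-oxoglutarate dehydrogenase complex. The rule uses symbols alone, but the set was picked with earlier results of these data known. They lie on 17 chromosomes, with 11 genes on chromosome 11 and 8 on chromosome 17, and are short, with a median length of 7900 bp from transcription start site (TSS) to gene end beside 17425 bp over all genes.

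Mitochondria make a handful of their own proteins, all of them core parts of the respiratory chain and ATP synthase, on a ribosome that differs from the one in the cytosol. Its RNAs are encoded in the mitochondrial genome, but every one of its proteins is encoded in the nucleus, transcribed there by RNA polymerase II (Pol II), translated in the cytosol and imported. Part of these proteins descend from those of bacterial ribosomes and part exist only in mitochondria. The genes are housekeeping genes, active in nearly every cell type. Monoubiquitylated histone H2B (H2Bub1) is a mark that is laid down on the body of transcribed genes as Pol II elongates.

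The study asked what happens to both when ATXN7L3 is lost. ATXN7L3 is the adaptor that a group of related ubiquitin proteases (USP22, USP27X and USP51) needs to take ubiquitin off H2B. Chromatin immunoprecipitation and sequencing (ChIP-seq) was carried out with an antibody against RPB1, the largest subunit of Pol II, and with an antibody against H2Bub1. The cells were Atxn7l3+/+ (WT) and Atxn7l3-/- (KO) mouse embryonic stem cells (mESCs) and mouse embryonic fibroblasts (MEFs), all of DBA/2 x C57BL/6 background. The null allele was carried in the germ line, so the KO cells of both types came from mutant embryos. The mESCs were derived from single blastocysts and were grown with LIF and inhibitors of MEK and GSK3. The MEFs were grown from individual E10.5 embryos without head and gut, and many cells of the KO cultures were round. The study calls the KO cells MEF-like. Each of the 8 combinations of cell type, genotype and antibody was 1 library, so no difference could be checked against replicates, and p-values are not given. Intervals are 95% exact intervals, over genes, and cover counting error only. The 78 genes are not replicates of a condition.

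Read depth is unknown. The Pol II lists held 17074 peaks and 11963 in the WT and KO mESCs and 45870 and 32232 in the WT and KO MEFs, and the H2Bub1 lists covered from 48.1 Mb (WT MEFs) to 223 Mb (KO MEFs) of the genome. In the mESC lists, 5 of 7 pluripotency markers (Nanog, Pou5f1, Sox2, Tdgf1, Zfp42) had a Pol II promoter peak in both genotypes and none had one in MEFs. All 7 fibroblast markers (Col1a1, Col1a2, Col3a1, Fn1, Prrx1, Thy1, Twist2) had one in both MEF lists, and Fn1 alone in the mESC lists. The promoter of Atxn7l3 itself, which lies outside the part of the gene that was removed, had a peak in all 4 Pol II lists and does not check the genotype.

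A promoter call means that at least 1 bp of a Pol II peak lay no more than 1000 bp upstream or downstream of the start of the gene record. The promoters that carry the main patterns are printed here from RefSeq (build GRCm38.p6), each as 300 bases on the strand of the gene, from 250 bases before to 50 bases from the start. Capitals mark every match, on either strand, to 7 letter strings that are known as core sites of promoter factors. These are GCGCATGC for NRF1, AAGATGGC for YY1, CCGGAAG for ETS factors such as GABP, and TCGCGAGA for Kaiso. The TATA box was searched as TATAAA, the site of SP1 factors as GGGCGG and the site of NF-Y as CCAAT. None of the 7 strings contains another. Mrps18b (chr17:35916391-35916690, minus strand) had the highest Pol II fold when each gene was ranked by its lowest list, and Mrpl12 (chr11:120484387-120484686, plus strand) the highest among genes with no opposite-strand TSS in the window, a choice made after the values were seen.
Mrps18b: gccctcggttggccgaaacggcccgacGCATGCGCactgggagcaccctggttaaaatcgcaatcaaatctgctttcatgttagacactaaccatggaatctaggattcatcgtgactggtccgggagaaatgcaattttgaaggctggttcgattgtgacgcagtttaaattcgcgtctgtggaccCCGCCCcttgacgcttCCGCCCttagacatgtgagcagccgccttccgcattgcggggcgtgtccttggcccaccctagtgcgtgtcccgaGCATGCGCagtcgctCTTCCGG
Mrpl12: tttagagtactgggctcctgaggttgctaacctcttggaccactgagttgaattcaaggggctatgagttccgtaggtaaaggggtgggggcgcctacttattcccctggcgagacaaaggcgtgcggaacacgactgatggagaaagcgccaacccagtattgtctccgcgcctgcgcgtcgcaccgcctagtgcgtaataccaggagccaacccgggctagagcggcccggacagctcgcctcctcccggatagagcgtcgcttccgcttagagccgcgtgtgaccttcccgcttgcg
Mrpl10 (chr11:97041332-97041631, plus strand) had a peak in the MEF lists and in neither mESC list, Mrps12 (chr7:28741772-28742071, minus strand) in WT mESCs and not in KO mESCs, and Mrps9 (chr1:42850983-42851282, plus strand) in KO mESCs and not in WT mESCs.
Mrpl10: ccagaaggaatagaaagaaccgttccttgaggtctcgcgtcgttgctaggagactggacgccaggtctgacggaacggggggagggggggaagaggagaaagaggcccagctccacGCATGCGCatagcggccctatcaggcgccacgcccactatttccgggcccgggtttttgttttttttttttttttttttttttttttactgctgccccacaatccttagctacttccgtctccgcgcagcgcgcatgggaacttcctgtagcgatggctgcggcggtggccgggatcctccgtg
Mrps12: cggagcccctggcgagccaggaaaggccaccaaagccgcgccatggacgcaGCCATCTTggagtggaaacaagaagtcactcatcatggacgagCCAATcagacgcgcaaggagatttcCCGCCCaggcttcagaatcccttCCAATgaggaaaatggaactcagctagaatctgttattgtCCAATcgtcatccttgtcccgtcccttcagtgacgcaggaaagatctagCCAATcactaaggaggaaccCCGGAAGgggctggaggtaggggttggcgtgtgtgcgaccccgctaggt
Mrps9: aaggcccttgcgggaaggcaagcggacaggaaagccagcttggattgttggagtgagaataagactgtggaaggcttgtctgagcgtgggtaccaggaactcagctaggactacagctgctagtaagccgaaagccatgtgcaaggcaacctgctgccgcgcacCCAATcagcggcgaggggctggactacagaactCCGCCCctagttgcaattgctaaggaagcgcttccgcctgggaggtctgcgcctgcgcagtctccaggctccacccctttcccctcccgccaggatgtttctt
Mrpl35 (chr6:71823735-71824034, minus strand) and Mrps24 (chr11:5707652-5707951, minus strand) had no call in any list.
Mrpl35: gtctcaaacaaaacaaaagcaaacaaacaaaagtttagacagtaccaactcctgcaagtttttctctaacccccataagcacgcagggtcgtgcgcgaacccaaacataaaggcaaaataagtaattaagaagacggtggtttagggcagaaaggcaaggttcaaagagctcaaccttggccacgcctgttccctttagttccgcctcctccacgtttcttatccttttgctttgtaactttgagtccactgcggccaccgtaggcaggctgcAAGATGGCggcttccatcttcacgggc
Mrps24: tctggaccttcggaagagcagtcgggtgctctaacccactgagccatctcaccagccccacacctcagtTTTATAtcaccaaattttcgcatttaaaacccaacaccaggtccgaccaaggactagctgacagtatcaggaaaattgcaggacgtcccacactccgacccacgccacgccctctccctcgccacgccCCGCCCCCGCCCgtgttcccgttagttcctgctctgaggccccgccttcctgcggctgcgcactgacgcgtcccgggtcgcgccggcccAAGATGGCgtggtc

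Of the 78 genes, 69 matched a RefSeq promoter, as did 16539 of all genes. ETS strings stood in 24 of the 69 promoters (34.8%, interval 23.7 to 47.2), beside 12.3% of all promoters. YY1 strings stood in 12 (17.4%, 9.32 to 28.4) beside 3.27%, and NRF1 strings in 8 (11.6%, 5.14 to 21.6) beside 3.77%. ETS factors of the GABP kind and NRF1 are known as activators of nuclear genes for mitochondrial proteins. In genes for the respiratory chain and ATP synthase, which share that background, the shares were 22.4% for ETS, 11.9% for YY1 and 14.9% for NRF1. In cytosolic ribosomal protein genes they were 39.7%, 7.94% and 3.17%, so the ETS share was not particular to genes for mitochondrial proteins. TATAAA stood in 4 of the 69 promoters, those of Mrpl16, Mrpl46, Mrps17 and Mrps24 (5.80% beside 12.9% of all). GGGCGG (49.3% beside 48.2%) and CCAAT (39.1% beside 38.8%) were about as frequent as in all promoters. The ratio of observed to expected CpG had a median of 0.818 (0.730 to 0.854), beside 0.602 over all promoters, at a similar GC content (58.3% and 57.0%). Cytosolic ribosomal protein genes (0.870) and respiratory chain genes (0.795) had similar ratios. The printed Mrps18b promoter holds 2 NRF1 strings, the Mrpl35 and Mrps24 promoters each hold a YY1 string just inside the transcript, and that of Mrpl12 holds none of the 7. A match is a description of letters and not evidence that a factor was bound.

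Many of the genes share their promoter with a neighbour. For 18 of 78 (23.1%, 14.3 to 34.0) the TSS of another protein-coding gene on the opposite strand lay within 1000 bp upstream, beside 6.78% of all genes and 21.7% of respiratory chain and ATP synthase genes. Counting opposite-strand TSSs on either side, the number was 33 (42.3% beside 10.9%). Some partners are themselves mitochondrial: Mrpl36 started 29 bp from Ndufs6 and Mrpl47 615 bp from Ndufb5, both for subunits of complex I. Mrpl46 and Mrps11, which start 412 bp apart, are both in the set and share the same peaks, so their Pol II values are 1 measurement. In WT MEFs all 18 upstream pairs had a peak that covered both TSSs, and the summit lay nearer the partner in 6 of them. In KO MEFs it did so in 7 of 18, in WT mESCs in 8 of 13 with a peak and in KO mESCs in 2 of 12. For these genes, and for the 26 of 78 (33.3%) that overlap another gene, the lists cannot say which gene the polymerase or the mark belonged to. The Mrps18b peak is an example: it was 4608 bp wide in WT mESCs and its summit lay at position -621 from the Mrps18b TSS (upstream), on the side of Ppp1r10, which starts 45 bp away.

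Pol II was found at nearly all of these promoters in MEFs and at most of them in mESCs. In WT MEFs 76 of 78 were called (97.4%, 91.0 to 99.7), beside 54.1% of all protein-coding genes, and in KO MEFs the count was again 76 (51.1% of all genes). In WT mESCs 54 were called (69.2%, 57.8 to 79.2; 33.9% of all genes) and in KO mESCs 48 (61.5%, 49.8 to 72.3; 31.3% of all genes). Genes called in all 4 lists numbered 43 (55.1% beside 25.2% of all genes). A further 17 had peaks in both MEF lists and in neither mESC list (21.8% beside 14.1%), and none had peaks in both mESC lists and in neither MEF list (0 of 78, interval to 4.62%, beside 0.597%). Over genes called in both MEF lists, the former were 17 of 76, not above the 28.4% of all such genes (3089 of 10892). The MEF lists hold more peaks, and their part in the difference between cell types was not tested.

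**Figure D1:**
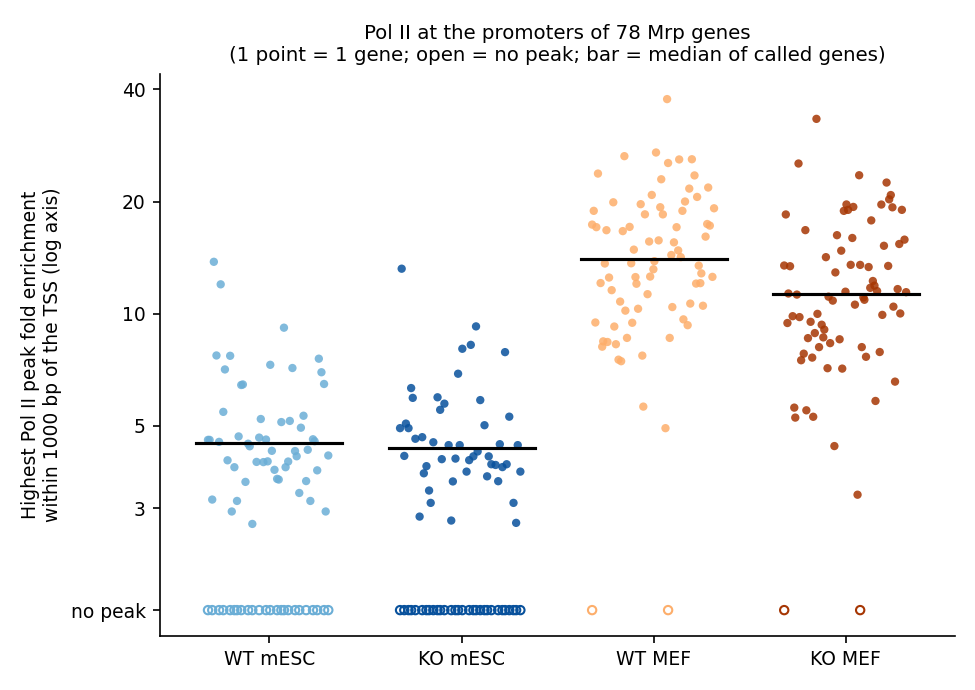
Highest fold enrichment (log axis) of a Pol II peak within 1000 bp of the TSS for each of the 78 genes in the 4 lists, with open symbols for genes without a peak and a bar at the median of called genes. The medians are 4.50 and 4.35 in WT and KO mESCs and 14.0 and 11.3 in WT and KO MEFs, and 24, 30, 2 and 2 genes had no peak.

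The fold is the ratio the authors' peak caller gives for a peak over the local background of its own library, so it orders genes within a list and sets no level across lists. The median promoter fold of the called genes was 4.50 and 4.35 in the WT and KO mESCs and 14.0 and 11.3 in the WT and KO MEFs. All called genes together gave 4.39, 4.53, 13.2 and 11.5, so the set sat near the middle of all genes. The cytosolic ribosomal protein genes, 83 genes by symbol with paralogues, gave 7.87, 7.99, 25.3 and 20.2 in the same lists, and the 83 genes of the respiratory chain and ATP synthase 4.56, 4.42, 15.2 and 11.5. The plot of promoter fold by list shows the spread.

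In WT mESCs the highest folds belonged to Mrps28 (13.8), Mrps18b (11.99) and Mrpl12 (9.17). Mrpl12 is the protein of the flexible stalk that recruits translation factors. Its fold was 9.25 in KO mESCs, and in MEFs 20.6 (WT) and 20.3 (KO), so the WT and KO folds of this gene were nearly equal within each cell type. Mrps18b, one of 3 mammalian relatives of bacterial S18, had folds of 11.99 and 13.2 in the WT and KO mESCs and 37.7 and 23.5 in the WT and KO MEFs. It was high in every list, with the reservation about Ppp1r10 above. The lowest called genes in WT mESCs were Mrpl43 (2.73), Mrps21 (2.94) and Mrps25 (2.94). In WT MEFs the highest after Mrps18b were Mrps14 (27.1) and Mrps35 (26.5), both for proteins of the small subunit. Mrps35 had 7.57 in WT mESCs, 8.25 in KO mESCs and 33.4 in KO MEFs, where it was the highest of the set. The lowest in WT MEFs were Mrpl33 (4.93), Mrpl20 (5.63) and Mrpl11 (7.46). Across the 54 genes called in both WT lists, the fold in mESCs and in MEFs had a Spearman rho of 0.44, a description over genes that share these libraries.

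By the medians of the set, peaks sat just downstream of the TSS, where Pol II is known to pause. The median distance of the summit downstream of the TSS was 87 and 95 bp in the WT and KO mESCs and 68 and 83.5 bp in the WT and KO MEFs. For genes with an opposite-strand TSS upstream, the medians were -61 and 50 bp in WT and KO mESCs (13 and 12 genes). In MEFs they were 30 (WT) and -10.5 bp (KO) for 18 genes each, with negative values upstream. In WT MEFs 58 of 76 summits (76.3%, against 65.2% for all genes) were within 200 bp of the TSS. Of those 76, 52 fell in an exon of the gene, 5 in an intron and 19 upstream of the gene, and in KO MEFs the split was 50, 8 and 18.

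The 2 genes without a call were Mrpl35 and Mrps24. Their gene records begin with a processed transcript that is not protein-coding, and the RefSeq starts lie 3185 and 7979 bp away from the starts of those records. At the start of the protein-coding transcript Mrps24 had folds of 5.19 and 4.42 in the WT and KO mESCs and 37.1 and 19.9 in the WT and KO MEFs, which would place it among the highest of the set in WT MEFs. Mrpl35 had no peak in WT mESCs and a fold of 4.34 in KO mESCs, with 11.8 and 13.8 in the WT and KO MEFs. With the starts of protein-coding transcripts, all 78 genes were called in both MEF lists. Mrpl33, at the bottom of the WT MEF list by the gene record, had 21.0 there by its coding transcript.

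Within mESCs the calls differed between genotypes at 16 genes, and all 16 were called in both MEF lists. A peak in WT mESCs and not in KO mESCs was found at 11 genes (14.1% beside 7.64% of all genes): Mrps12 (fold 4.68 in WT), Mrpl36 (4.65), Mrpl16 (4.59), Mrps2 (4.41), Mrpl58 (4.0), Mrpl54 (3.81), Mrps22 (3.59), Mrpl42 (3.30), Mrpl47 (3.14), Mrps21 (2.94) and Mrps25 (2.94). The list runs from Mrps12, part of the decoding centre, through Mrpl58, a peptidyl-tRNA hydrolase built into the large subunit, to Mrpl54 and Mrps22, which exist only in mitochondria. A peak in KO mESCs and not in WT mESCs was found at 5 genes (6.41% beside 5.13%): Mrps9 (5.07), Mrps33 (4.07), Mrpl2 (3.66), Mrps23 (3.10) and Mrps14 (2.85). Mrpl2 is the counterpart of a core bacterial protein near the peptidyl transferase centre. More of these genes than of all genes were called in the first place, so the shares were also taken over called genes. Of the 54 called in WT mESCs 20.4% (10.6 to 33.5) were not called in KO mESCs, beside 22.6% over all genes, and of the 48 called in KO mESCs 10.4% (3.47 to 22.7) were not called in WT mESCs, beside 16.4%. Both shares are near those of the genome.

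The genes called in 1 genotype had folds in the lower part of the range on the whole. In the WT mESC list the 11 had a median fold of 3.81 and a maximum of 4.68, while the 43 genes called in both lists had a median of 4.58. In the KO mESC list the 5 had a median of 3.66 and a maximum of 5.07, beside a median of 4.44 for the 43. At Mrps12 the call depended on the TSS taken. Its WT mESC peak (chr7:28741860-28742339) began 40 bp upstream of the TSS of the gene record, while the nearest KO mESC peak lay 1540 bp away. Over all its protein-coding transcripts a KO mESC peak with a fold of 2.99 was within 1000 bp of a TSS. In MEFs no gene was called in 1 genotype alone (0 of 78 in each direction, interval to 4.62%, beside 4.41% of all genes for WT only and 1.46% for KO only). Over called genes this was 0 of 76 in each direction (interval to 4.74%), beside 8.16% and 2.86% of all called genes. Respiratory chain and ATP synthase genes also had none (0 of 78).

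Among genes called in both genotypes, the fold in mESCs was as often higher as lower in KO. The median log2 of KO over WT fold was -0.0011 (-0.20 to 0.12) over 43 genes, and 22 of the 43 were lower in KO, beside 47.5% of all genes. The sign of this median depended on the setting. In MEFs the median was -0.30 (-0.50 to -0.19) over 76 genes and 63 of the 76 were lower in KO, beside 67.7% of all genes. The median over all genes in MEFs was -0.23, close to that of the set. Cytosolic ribosomal protein genes gave -0.10 in mESCs and -0.29 in MEFs, and respiratory chain and ATP synthase genes 0.05 and -0.39.

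**Figure D2:**
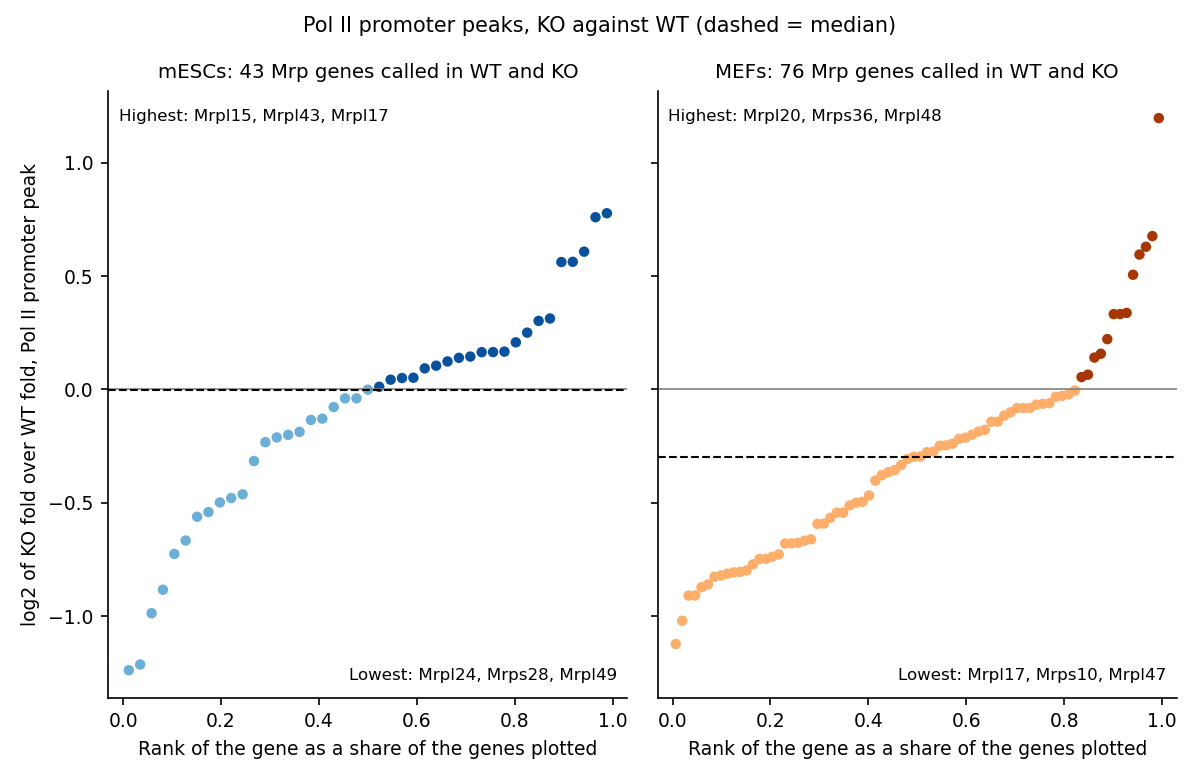
Log2 of the KO over the WT fold of the Pol II promoter peak for each gene called in both genotypes, ranked from lowest to highest in mESCs (43 genes) and MEFs (76 genes), with the median as a dashed line. The mESC values lie evenly around 0, and 63 of the 76 MEF values lie below 0.

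A fold difference of at least 2 between genotypes was seen at 2 of 43 genes in mESCs (4.65% beside 3.43% of all genes) and 3 of 76 in MEFs (3.95% beside 8.75%). The ratios were not corrected for the shift between lists, a median log2 over all genes of -0.23 in MEFs and 0.025 in mESCs. In mESCs these were Mrpl24 and Mrps28. Mrpl24, a counterpart of bacterial L24, had a fold of 6.48 in WT and 2.74 in KO mESCs (log2 -1.24) and 12.8 and 10.4 in WT and KO MEFs. Mrps28, the longest gene of the set at 121773 bp, had 13.8 in WT and 5.94 in KO mESCs (log2 -1.21) and 19.9 and 16.8 in MEFs. Both were lower in KO in both cell types, with the larger gap in mESCs. In MEFs the genes were Mrpl17, Mrps10 and Mrpl20. Mrpl17 had 4.53 and 6.90 in WT and KO mESCs, but 21.8 and 10.0 in WT and KO MEFs (log2 -1.12). Mrps10 had no promoter peak in mESCs and 15.5 and 7.66 in WT and KO MEFs (log2 -1.02). Mrpl20 was higher in KO, with 5.63 and 12.9 (log2 1.2), but its summits lay 782 and 757 bp from the TSS. Over the 43 genes called in all 4 lists, 17 were lower in KO in both cell types, 4 higher in both, 17 higher in mESCs and lower in MEFs, and 5 the reverse. The same split was not made over all genes. Of all genes called in both MEF lists 67.7% were lower in KO MEFs, so the split was not read as a trait of the set.

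The subunits gave similar promoter values. In WT mESCs 36 of 51 large subunit genes (70.6%) and 17 of 26 small subunit genes (65.4%) were called, with a median fold of 4.50 and 4.55. In WT MEFs the medians were 14.0 and 14.4. Within the set gene length varied with the calls: 23 of the shortest 26 genes were called in WT mESCs, 15 of the middle 26 and 16 of the longest 26. These counts were not set beside all genes of such lengths.

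Pol II peaks beyond the promoter were sparser. A summit more than 1000 bp downstream of the TSS and inside the gene was found for 12 genes in WT mESCs (15.4% beside 17.1% of all genes), 6 in KO mESCs (7.69% beside 11.2%), 34 in WT MEFs (43.6% beside 31.8%) and 19 in KO MEFs (24.4% beside 25.1%). The order of the 4 lists is that of their peak numbers, and with equal numbers of peaks per pair the WT MEF share was 26.9%. For the 16 genes that lie 5000 bp or more from any other gene it was 12.5%. The genes with such peaks in at least 3 lists included Mrpl33 (3 peaks and 2 in the WT and KO mESCs and 8 and 7 in the WT and KO MEFs), Mrps24 (1, 2, 2 and 3 in the same order), Mrpl35 (0, 1, 1 and 1), Mrpl37 (1, 0, 1 and 2), Mrpl17 (1, 0, 2 and 3) and Mrpl24 (0, 1, 1 and 2). For Mrpl33, Mrps24 and Mrpl35 the body contains the start of the coding transcript.

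H2Bub1 was found at all of these genes in KO cells and at fewer in WT cells, most of all in MEFs. A gene body call means at least 1 bp of H2Bub1 peak between TSS and gene end. In KO cells every one of the 78 genes was called in both cell types (100%, 95.4 to 100), beside 60.8% of all genes in mESCs and 53.0% in MEFs. In WT mESCs 70 were called (89.7%, 80.8 to 95.5; 53.6% of all genes) and in WT MEFs 37 (47.4%, 36.0 to 59.1; 30.4% of all genes). A call in KO only was found at 8 genes in mESCs (10.3% beside 10.1% of all genes) and at 41 in MEFs (52.6% beside 22.9%). Among genes called for Pol II in both MEF lists, the KO-only share in MEFs was 53.9% in the set (41 of 76, 42.1 to 65.5) and 38.0% over all such genes, or 47.1% over those of a length in the middle range of the set. A call in WT only was found at none in either cell type (0 of 78, interval to 4.62%, beside 2.97% of all genes in mESCs and 0.278% in MEFs). The 8 genes in mESCs were Mrpl16, Mrpl30, Mrpl32, Mrpl34, Mrpl40, Mrps14, Mrps17 and Mrps33, and all but Mrpl30 were also without H2Bub1 in WT MEFs. The KO lists also covered more of the genome as a whole (151 Mb against 71.6 Mb for mESCs, 223 Mb against 48.1 Mb for MEFs), and the part of depth, or of any scaling before peak calling, was not tested. Many WT calls rested on weak peaks. When a −log10 q of 3 or more was required, WT calls were 29.5% for mESCs and 3.85% for MEFs, and 92.3% of the genes were called in KO mESCs. The KO-only share in mESCs was then 64.1%, and with 10% of the gene body required it was 32.1%.

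The share of the gene body inside peaks had a median of 21.5% in WT mESCs, with an interval of 15.6 to 29.0, and 57.3% in KO mESCs, with one of 45.6 to 67.6. WT MEFs gave 0% (0 to 4.14) and KO MEFs 69.1% (51.0 to 83.0). The WT mESC median was 0% when only peaks of the stricter q counted, and the KO MEF median was 40.1% over the 16 genes far from any other. It was higher in KO at 74 of 78 genes in mESCs (94.9% beside 53.3% of all genes) and at all 78 in MEFs (100% beside 52.6%). Over all genes called for Pol II in both MEF lists these shares were 82.3% and 93.2%, so most of the distance from all genes was shared with genes that carry Pol II. The WT and KO values of MEFs overlapped in part. The highest WT value, 72.4% at Mrps2, was the only WT value above the KO median, and the lowest KO value was 14.7%, at Mrpl45. The genes covered from end to end numbered 2 and 16 in the WT and KO mESCs and 0 and 16 in the WT and KO MEFs. The 16 genes were 20.5% of the set in KO mESCs and again in KO MEFs, beside 4.95% and 5.75% of all genes, and the 2 in WT mESCs were 2.56% beside 1.47%. In the middle range of lengths (4570 to 12531 bp for the genes of the set) it was 3 of 38 in each KO list (7.89%, 1.66 to 21.4), beside 16.2% in KO mESCs and 19.6% in KO MEFs for genes of like length with Pol II in both MEF lists. In bulk chromatin, more cells that carry the mark and more mark per cell cannot be told apart.

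**Figure D3:**
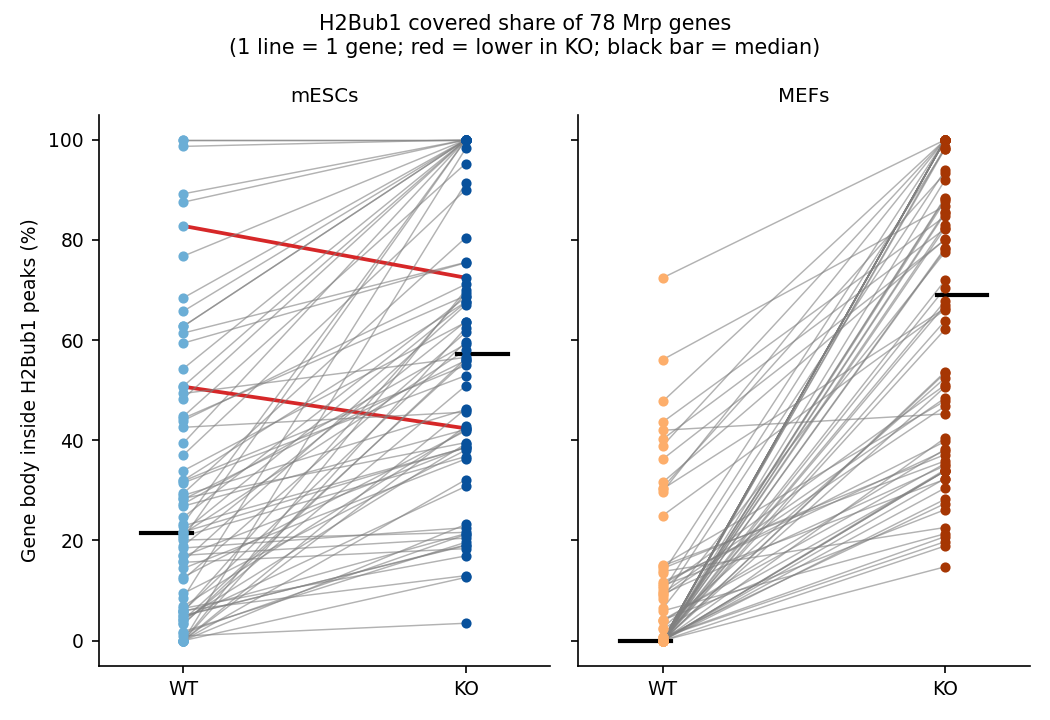
Share of the gene body inside H2Bub1 peaks for each of the 78 genes in WT and KO mESCs and MEFs, joined by a line, with a bar at the median and red lines for genes lower in KO. The medians of WT and KO are 21.5% and 57.3% for mESCs and 0% and 69.1% for MEFs, and the 2 red lines are Mrpl27 and Mrpl11.

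The largest differences in mESCs were at Mrpl34, Mrpl14 and Mrps12. Mrpl34, the shortest gene at 789 bp, was covered to 0% and 91.4% in the WT and KO mESCs and 0% and 100% in the WT and KO MEFs. Mrpl14 was covered to 8.54%, 98.3%, 9.86% and 98.2% in the same order. Mrps12, which had no Pol II promoter call in KO mESCs, was covered to 20.6%, 100%, 0% and 100%. In all 3 the KO values of both cell types were above 90%, and the WT value of Mrps12 in mESCs was close to the median of the set.

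Only 2 genes were lower in KO mESCs. Mrpl27, a counterpart of bacterial L27, was covered to 82.8% and 72.5% in the WT and KO mESCs and 0% and 88.5% in the WT and KO MEFs. Mrpl11, at the base of the stalk, was covered to 50.7%, 42.4%, 0% and 32.4%. Both were without H2Bub1 in WT MEFs and covered in KO MEFs. Mrps7 and Mrpl28 were covered to 100% in both genotypes of mESCs, so no difference could be seen there, and in MEFs they went from 38.9% to 100% and from 29.8% to 100%.

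In MEFs, 11 genes went from no coverage in WT to full coverage in KO: Mrpl2, Mrpl18, Mrpl34, Mrpl41, Mrpl43, Mrpl49, Mrpl52, Mrpl53, Mrps12, Mrps14 and Mrps34. They were 14.1% of the set, beside 1.59% of all genes, but in the middle range of lengths 2 of 38 (5.26%, 0.644 to 17.7), beside 3.64% of genes of like length with Pol II. Among them Mrpl41, Mrpl43, Mrpl49, Mrpl52 and Mrpl53 code for large subunit proteins found only in mitochondria. At the other end, picked after the values were seen, Mrpl9 had 42.0% in WT and 45.3% in KO MEFs and Mrps5 13.8% and 22.6%. In MEFs KO minus WT was 10 percentage points or less at these 2 genes, and in mESCs at 13.

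The mark was not spread evenly along the genes. With each gene body cut into 3 equal parts, the 5′ part was covered to a mean of 36.5% in WT mESCs, the middle part to 26.6% and the 3′ part to 23.4%. In KO mESCs the means were 82.2%, 55.8% and 39.3%, in WT MEFs 15.0%, 9.34% and 3.28% and in KO MEFs 89.3%, 64.3% and 44.0%. The 5′ part had the highest mean in all 4 lists, as it had over all genes, where the means of the 5′ and 3′ parts were 17.9% and 12.4% in WT mESCs and 38.7% and 16.4% in KO MEFs. Exons and introns of the KO genes were covered to similar extents in MEFs (48.7% and 49.7% of bases), and in WT MEFs exons were behind introns (6.5% and 8.58%), while in mESCs exons were ahead of introns (45.0% and 36.6% in KO, 23.8% and 14.3% in WT). Bases were pooled over the genes, so the long genes weigh most in the intron shares. This split was not made over all genes or by gene length.

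Around the TSS the share of genes inside an H2Bub1 peak was highest at 350 bp downstream for WT mESCs (59.0%) and was level at its highest at 6 steps of 50 bp from 250 to 550 bp for KO mESCs (97.4%). For WT MEFs it was level at 3 steps from 950 to 1100 bp (20.5%), and for KO MEFs it was highest at 600 bp (97.4%). At the TSS itself the shares were 35.9%, 82.1%, 5.13% and 79.5%, beside 17.8%, 38.6%, 3.48% and 34.8% of all genes. The highest values over all genes were 31.9%, 47.9%, 12.3% and 46.0%. At the gene end 29.5% of the genes were inside a peak in KO MEFs and 1.28% in WT MEFs, and in mESCs 26.9% and 20.5%. Over all genes the shares there were 11.8% and 1.8% for MEFs and 13.7% and 9.75% for mESCs, so in WT MEFs the set was no higher than all genes. In each cell type and genotype the median Pol II summit lay upstream of the distance of highest H2Bub1 share, as it did over all genes. In WT MEFs that highest share was only 16 of 78 genes.

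**Figure D4:**
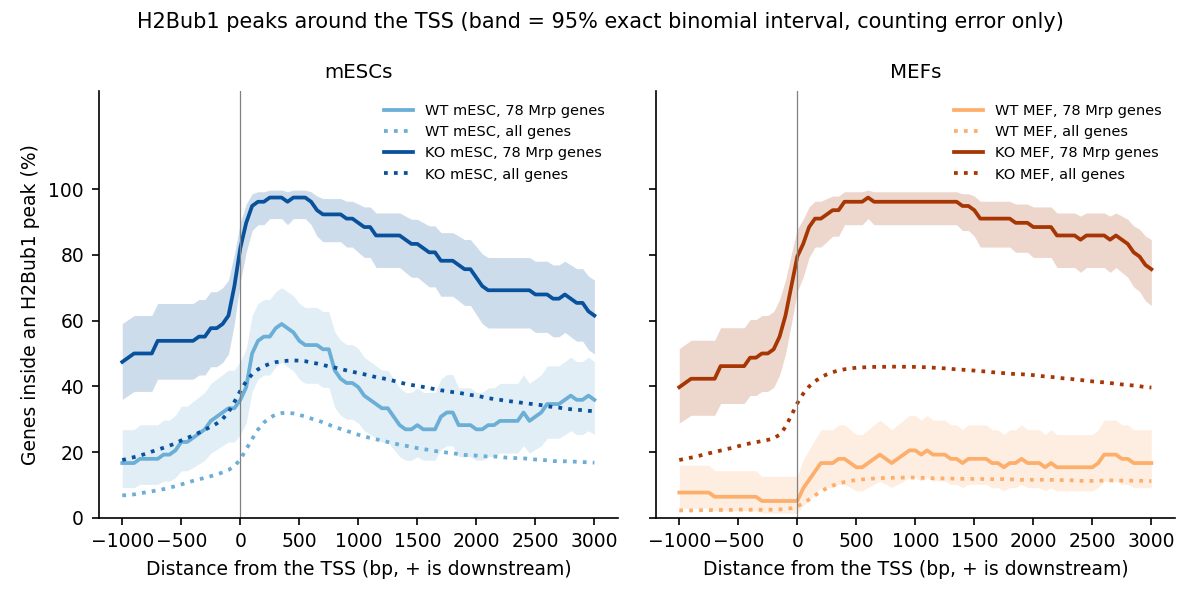
Percentage of genes inside an H2Bub1 peak at each distance from the TSS, from 1000 bp upstream to 3000 bp downstream, for the 78 genes (solid, with 95% exact band) and all genes (dotted) in mESCs and MEFs. The KO lines of the 78 genes reach 97.4% in both cell types, and the WT lines reach 59.0% in mESCs and 20.5% in MEFs.

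Peak height is known only where a peak was called, so it leaves out the genes without a WT peak and cannot be set against the covered share. The median fold of the H2Bub1 peaks on the genes was 2.83 and 3.25 in the WT and KO mESCs and 3.02 and 3.50 in the WT and KO MEFs. Where both genotypes had a peak, the median log2 of KO over WT was 0.15 (0.11 to 0.23) over 70 genes in mESCs, with 54 higher in KO (77.1% beside 65.8% of all genes), and 0.27 (0.18 to 0.42) over 37 genes in MEFs, with 31 higher (83.8% beside 82.4%). Over all genes these medians were 0.08 and 0.34.

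Within the set, short genes were the most covered in KO cells and the least covered in WT MEFs. Spearman rho of gene length and covered share was -0.38 and -0.61 in the WT and KO mESCs and 0.33 and -0.73 in the WT and KO MEFs over the 78 genes, given as a description. In the shortest 26 genes the median covered share was 40.7% and 95.7% in the WT and KO mESCs and 0% and 100% in the WT and KO MEFs, and 5 of 26 genes had H2Bub1 in WT MEFs. In the longest 26 genes the medians were 12.5%, 39.1%, 5.03% and 35.2%, and 21 of 26 had H2Bub1 in WT MEFs. A call needs only 1 bp of peak, which a longer body can meet more easily. These counts were not set beside all genes of such lengths, so they do not set the genes of the set apart. The 41 genes without H2Bub1 in WT MEFs had a median length of 4997 bp and the 37 with it 12174 bp. In KO MEFs the order was the opposite, with a median coverage of 82.4% for the 41 and 48.5% for the 37. Their Pol II folds in WT MEFs overlapped, with medians of 12.6 and 15.6.

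**Figure D5:**
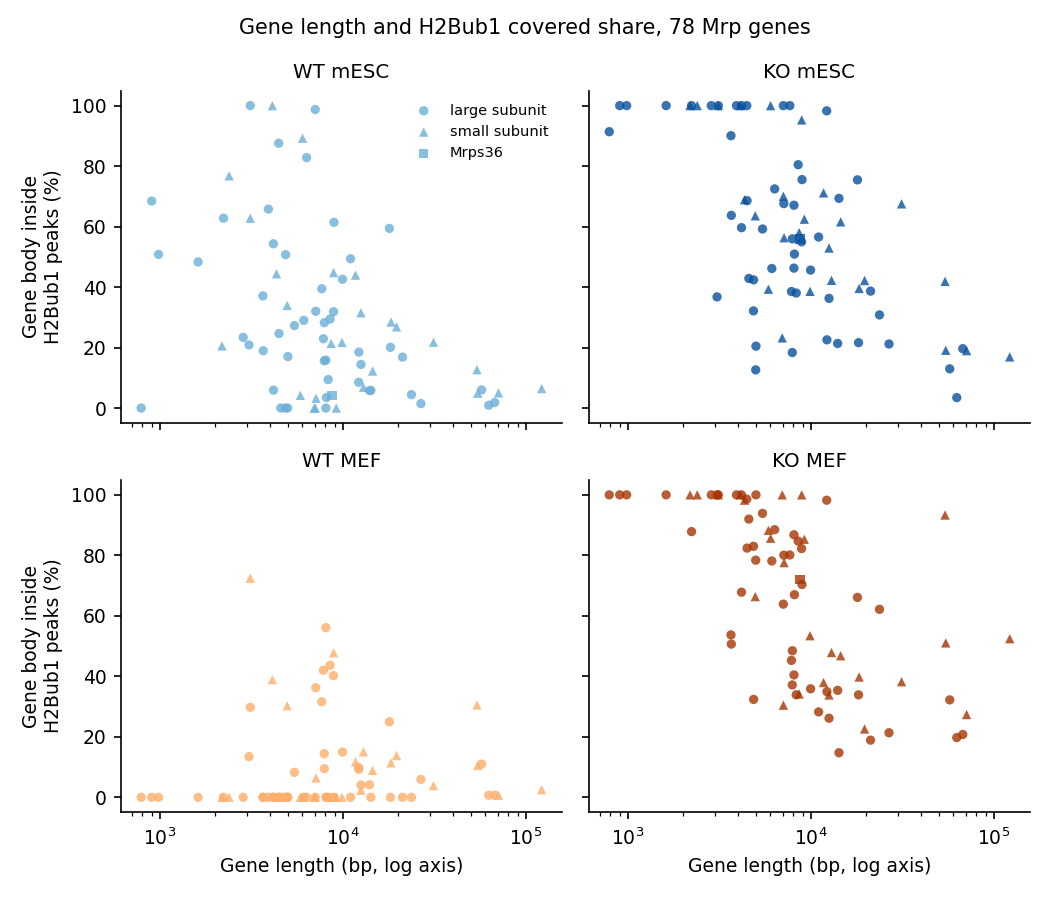
Gene length (log axis) against the share of the gene body inside H2Bub1 peaks for the 78 genes in each of the 4 lists, with circles for large subunit, triangles for small subunit genes and a square for Mrps36. The shortest 26 genes have a median of 100% in KO MEFs and 0% in WT MEFs, and the longest 26 genes 35.2% and 5.03%.

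Most genes of the set carried Pol II, so genes with Pol II are the closer background. Of the 76 genes called for Pol II in WT MEFs, 35 had H2Bub1 (46.1%, 34.5 to 57.9), beside 52.4% of all genes with a Pol II call there. In KO MEFs it was 76 of 76, beside 93.3%, in WT mESCs 51 of 54 (94.4% beside 91.7%) and in KO mESCs 48 of 48 (beside 97.8%). Among all genes with Pol II calls in both MEF lists and a length in the middle range of the set, the median covered share was 31.5% and 61.9% in the WT and KO mESCs and 0% and 67.3% in the WT and KO MEFs. The genes of the set in that length range gave 22.3%, 55.9%, 0% and 74.8%. Beside genes of like length that carry Pol II, the medians of the set were thus lower in mESCs, equal in WT MEFs and higher in KO MEFs. The background was chosen by Pol II in MEFs for the mESC values as well, and the differences were not tested. H2Bub1 was also found without a Pol II promoter call: all 30 genes not called in KO mESCs (beside 43.9% of all uncalled genes) and 19 of 24 not called in WT mESCs (beside 34.1%) had it. Some of these calls were missing only by the start taken. With any protein-coding TSS, 55 genes were called in WT mESCs and 52 in KO mESCs. All the uncalled genes but Mrpl35 and Mrps24 had a Pol II call in both MEF lists, which need not hold for the uncalled genes set beside them.

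The genes were also split by their Pol II call in mESCs. The 11 genes with a Pol II call in WT mESCs only went from a median coverage of 19.0% to 63.7%, and all 11 were higher in KO (beside 78.4% of all genes with that call). The 5 with a call in KO mESCs only went from 3.24% to 56.3%, and all 5 were higher (beside 91.6%). The 43 with both calls went from 22.9% to 56.6% (40 higher, 93.0%, 80.9 to 98.5), beside 84.9% of all such genes, whose medians were 19.5% and 42.8%. The 19 with neither went from 26.9% to 56.0% (18 higher, 94.7%), beside 33.3% of all genes with neither call, whose medians were 0% in both genotypes. Of these 19, 17 were called for Pol II in both MEF lists. Spearman rho of the Pol II log2 ratio and the difference in covered share was -0.03 in mESCs (43 genes) and 0.17 in MEFs (76 genes), both descriptions over genes.

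The cytosolic ribosomal protein genes make a contrast. In WT MEFs 79 of 83 had H2Bub1 (95.2%, 88.1 to 98.7), against 37 of 78 mitochondrial ones (47.4%), with a median coverage of 75.2% against 0%. In WT mESCs their median coverage was 100%, which leaves no room above, and 28.9% were higher in KO. In MEFs 84.3% were higher in KO. They are shorter (median 3368 bp) and have the higher Pol II folds given above, and the part of either in this contrast was not tested. The respiratory chain and ATP synthase genes stood between, with 60 of 83 called in WT MEFs (72.3%) and medians of 24.9%, 72.9%, 26.5% and 91.4% in WT mESCs, KO mESCs, WT MEFs and KO MEFs.

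Other genes needed to build and run the mitochondrial ribosome, 45 by a list of which 43 were in the annotation, are longer, with a median of 12817 bp. Pol II was called at 34 in WT mESCs, 25 in KO mESCs and 43 in both MEF lists. The covered share was higher in KO at 39 of 43 in mESCs (90.7%) and 42 of 43 in MEFs (97.7%), with medians of 18.1% and 43.5% in WT and KO mESCs and 1.69% and 43.2% in WT and KO MEFs, so both KO medians were below those of the set. The 5 ribosomal proteins that lack the Mrp symbol (Aurkaip1, Chchd1, Dap3, Gadd45gip1 and Ptcd3) had a Pol II call in all 4 lists, and 11 translation factors such as Tufm, Gfm1 and Mtif2 in 6, 3, 11 and 11 cases. Tufm, the elongation factor that brings aminoacyl-tRNA to the ribosome, had no promoter peak in mESCs and folds of 7.35 and 8.22 in WT and KO MEFs. Gfm1, the translocase, also had no promoter peak there and 6.84 and 7.97 in MEFs. Of 19 assembly and rRNA maturation genes 16, 12, 19 and 19 had a Pol II call, and of 8 genes for mitochondrial transcription and RNA stability 7, 5, 8 and 8. Tfam, which packages mitochondrial DNA and starts its transcription, had 4.64, 4.14, 12.9 and 8.55.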

How the data were processed

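Chromatin of 4 cell populations was immunoprecipitated with anti-RPB1 and anti-H2Bub1 antibodies and sequenced as single-end reads. Per the labels and the study's methods, the authors aligned reads to mm10 with Bowtie 1.0.0 and called peaks with MACS2 2.1.1.20160309, narrow for Pol II and broad for H2Bub1 by the form of the lists. The control and thresholds of peak calling are not given in the sources used here. H2Bub1 data were normalized by the authors with intergenic size factors and Pol II data by mapped reads. The study's methods name normalization ahead of peak calling. They do not say whether the size factors entered it, so the effect on WT and KO coverage is unknown. The deposited lists hold a fold enrichment (a ratio), a −log10 p and a −log10 q for each peak, and for Pol II a summit offset and for all a score, both written by MACS2. The lowest deposited −log10 q was 1.33 in the narrow and 1.00 in the broad lists. Of 16 samples, 8 (inputs and another Pol II antibody) were not analysed here.

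Genes were taken from GENCODE M21, with the TSS at the 5′ end of the gene record. A promoter call needed 1 bp of a Pol II peak within 1000 bp of the TSS, a Pol II body call a summit over 1000 bp downstream and inside the gene, and an H2Bub1 call 1 bp between TSS and gene end. A gene's Pol II fold was the highest of its promoter peaks, and its H2Bub1 fold the mean of its peaks weighted by the bases covered. With 1 library per group no test was made. Shares have 95% Clopper-Pearson intervals and medians exact order-statistic intervals over genes, for counting error only. The scripts (pandas 2.3.3, numpy 2.4.6, scipy 1.17.1 under Python 3.11.15, with plots by matplotlib 3.10.9) were tested on simulated data. The named genes were the highest and lowest of each measure, the genes whose calls differed, and exceptions stated in the text. 9 alternatives were tried. The genes and gene lists were chosen with earlier results of these data known.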

Additional observations from a re-analysis of the deposited data

Results flagged for a closer look

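The covered share of 2 genes, and the Pol II promoter fold of 2 others by at least 1.5 times in each cell type, differed between KO and WT in opposite directions in mESCs and MEFs. By sign alone the Pol II fold did so at 17 and 5 of 43 genes, as given above, a split that was not made over all genes. These differences rest on 1 library per group and were not tested. The share of the gene body inside H2Bub1 peaks was lower in KO than in WT mESCs at Mrpl11 (KO minus WT -8.32 percentage points) and higher in KO than in WT MEFs (32.4 points). At Mrpl27 the values were -10.3 points in mESCs and 88.5 points in MEFs. The log2 of the KO over the WT fold of the Pol II promoter peak was 0.61 in mESCs and -1.12 in MEFs at Mrpl17. At Mrps6, for a small subunit protein, it was -0.67 in mESCs and 0.59 in MEFs.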

How the results depend on the processing

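Over 9 alternatives 150 values were recomputed, of which 124 stayed inside the interval of the reported value and 26 left it. The mESC median log2 of KO over WT Pol II fold, -0.0011 as reported, was 0.0052 with a −log10 q of 3 or more and also with the summit inside the window, and 0.10 over genes far from any other, and its interval held 0 each time. With the 16 genes that lie 5000 bp or more from any other, Pol II promoter calls were 56.3% for WT mESCs and 100% for both MEF lists, so that KO mESCs (62.5%) stood above WT mESCs, with 2 calls in WT only and 3 (18.8%) in KO only. Pol II body calls were then 0% for KO mESCs and 12.5% for both MEF lists, and median H2Bub1 coverage 41.0% for KO mESCs and 5.02% and 40.1% for WT and KO MEFs. With any protein-coding TSS, Pol II promoter calls in WT and KO MEFs were both 100%. With equal numbers of peaks, Pol II body calls in WT MEFs were 26.9%, and with 1 bp of a peak enough they were 56.4% in WT and 37.2% in KO MEFs. With a −log10 q of at least 3, H2Bub1 calls were 29.5% in WT mESCs, 92.3% in KO mESCs and 3.85% in WT MEFs, KO-only calls 64.1% in mESCs and 96.2% in MEFs, and median coverage 0% in WT and 39.9% in KO mESCs. With 10% of the body required, H2Bub1 calls were 66.7% in WT mESCs and 28.2% in WT MEFs, and KO-only calls 32.1% in mESCs and 71.8% in MEFs. The WT H2Bub1 calls thus depend on low-scoring peaks, and the cause was not tested. No paired analysis was possible because each group held 1 library. Read depth is unknown, a missing peak is not a missing polymerase or mark, and folds are relative to each library's own background.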
